A study of Homo sapiens with 9 samples.

Results

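Genes of the retinoid pathway were followed across U87 glioblastoma cells, the stem cells derived from them and the differentiated progeny of those stem cells: RDH10, DHRS3, ALDH1A3, CRABP2, CYP26B1, RXRA, RARA, RARB and RARG. They are 9 of the 60606 genes in the deposited table and were found by symbol. The set was put together around the measured pattern of DHRS3, which is nearly absent in GSCs and present in the other cells, so the set was chosen by the DHRS3 levels in these libraries, and those values are given as a description with no test. RNA was sequenced from 3 libraries per cell line, 9 in all. U87, an established human glioblastoma line, was grown in DMEM with 10% fetal bovine serum. GSCs were grown in serum-free DMEM/F12 with B27, EGF at 20 ng/ml and bFGF at 20 ng/ml, and had received 13 rounds of irradiation at 5 Gy. Diff cells were obtained from these GSCs in DMEM with 10% fetal bovine serum and were cultured further from clonal communities, so they share the irradiation of GSCs and the serum of U87. Between GSCs and U87 the medium, the irradiation and the stem cell state cannot be told apart. Between Diff cells and GSCs the same holds for the medium, the differentiation and the clonal selection. Between Diff cells and U87 it holds for the irradiation, the earlier stem cell culture and the clonal selection. The type of B27, a supplement sold with and without vitamin A, was not given in the sources used here.

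Retinoic acid is made from vitamin A in successive oxidations. Retinol dehydrogenases such as RDH10 turn retinol into retinal, DHRS3 reduces retinal back to retinol, and the ALDH1A enzymes oxidize retinal to retinoic acid. CRABP2 carries retinoic acid to the nucleus, CYP26 enzymes break it down, and RAR and RXR receptors bind DNA as pairs and control genes that include DHRS3, RARB and CYP26 genes themselves.

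The response element of this pathway is shown in promoter sequence from RefSeq (GRCh38.p14), because RARB and DHRS3 share low levels in GSCs. RAR and RXR bind pairs of hexamers in direct repeat, and the element with 5 bases between the hexamers is called DR5. In windows of 250 bases before and 50 bases after each annotated start, a DR5 was found in 31 of 35116 windows (0.0883%), and in 1 of the 16 windows of the genes studied here, at chr3:25428210-25428226 in front of a RARB start. DR1 was in 0.131% and DR2 in 0.0399% of windows, and in 0 of these 16. The hexamer AGGTCA, searched on both strands, was in 13.8% of all windows and in 3 of the 16, 1 each of DHRS3, RARA and RARB. AGTTCA, which is part of the DR5 of RARB, was in 10.4% of all windows and in 2 of the 16, both of RARB. RDH10 was not matched to a window. The first line is RARB, chr3:25428013-25428262, plus strand, with the hexamers of the DR5 in capitals. The second is DHRS3, chr1:12596614-12596863, minus strand, before an annotated start inside the gene, with the reverse complement of AGGTCA in capitals. The third is CYP26A1, a retinoic acid-degrading enzyme outside the 9 genes, chr10:93073783-93073839, plus strand, with a DR5 that reads on the opposite strand in capitals.
RARB: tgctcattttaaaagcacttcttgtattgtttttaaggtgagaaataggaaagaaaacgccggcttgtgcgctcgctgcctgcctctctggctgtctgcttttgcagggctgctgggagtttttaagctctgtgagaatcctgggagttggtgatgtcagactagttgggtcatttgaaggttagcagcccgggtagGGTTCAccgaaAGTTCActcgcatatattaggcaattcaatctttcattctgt
DHRS3: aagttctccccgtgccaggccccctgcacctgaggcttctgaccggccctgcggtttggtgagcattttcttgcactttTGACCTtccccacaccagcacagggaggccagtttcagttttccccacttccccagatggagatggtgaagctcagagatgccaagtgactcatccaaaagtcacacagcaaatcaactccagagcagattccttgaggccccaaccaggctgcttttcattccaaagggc
CYP26A1: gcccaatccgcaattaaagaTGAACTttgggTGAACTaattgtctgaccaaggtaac
These matches describe letters in the windows and were not linked to binding. DHRS3 begins at 12617731 on the minus strand, and the window shown lies inside it. The DHRS3 windows nearer that end, chr1:12618211-12618460 and chr1:12616790-12617039, held no AGGTCA on either strand. CYP26A1 was listed at 0 TPM in all 9 libraries.

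The values are TPM, transcripts of a gene per 1000000 transcripts in the library, which takes gene length into account, so levels of different genes can be set side by side. Fold changes are differences of mean log2(TPM + 1), tested with limma over 22909 genes with a mean TPM over 1, with adjusted p after Benjamini and Hochberg over all of them. A gene was called, and is said to rise or fall, at an adjusted p under 0.05 and a log2 fold change over 1 in either direction. Whether the 3 libraries of a cell line came from separate cultures is not stated, so p-values measure the spread between these libraries, which may be technical. Depth per library, approximated, was 18.4 to 25.1 times 1000000 reads. Mitochondrial genes took 25.9 to 31.8% of TPM and the noncoding RNA RN7SL1 5.73 to 9.79%. The stem cell label was checked with PROM1, SOX2, FABP7, NES and OLIG2. Their summed TPM was 35.5 to 39.9 in GSCs, 39.1 to 43.1 in U87 and 21.3 to 22.7 in Diff cells, most of it NES, and of the 3 that were tested FABP7 alone was called higher in GSCs than in U87 (log2 fold change 1.77, limma adjusted p = 2.66e-05). SOX2 and PROM1 did not pass the filter. SOX2 averaged 0.879 TPM in GSCs, 0.0383 in U87 and 0.153 in Diff cells, and PROM1 0.507, 0.171 and 0.0236, so both were highest in GSCs, with every GSC library above all others, at less than 1 TPM. The neuronal markers TUBB3, MAP2, DCX and RBFOX3 summed to 10.2 to 13.7 TPM in U87, 12.7 to 13.2 in GSCs and 26.5 to 27.5 in Diff cells. Most of the rise was MAP2, which averaged 7.95, 8.22 and 21.7 TPM in U87, GSCs and Diff cells. TUBB3 averaged 3.74, 4.66 and 5.22 and was called in no comparison, and DCX and RBFOX3 stayed at 0.164 or less. The astrocyte markers GFAP, S100B and AQP4 stayed at 2.65 TPM or less in sum, and the blood cell gene PTPRC at 0.137 or less. The endothelial genes PECAM1 and CDH5 summed to 5.46 to 7.39 TPM in GSCs, 1.95 to 4.12 in U87 and 2.42 to 3.67 in Diff cells. The part of these markers in the results was not tested. The epithelial keratins KRT5 and KRT14 stood at 5.54 and 6.03 TPM in Diff replicate 1 and at 0.0661 or less in every other library. The other epithelial markers did not go with them. EPCAM, at 0.908 TPM in Diff replicate 1, was lower there than in every other library, and CDH1 stayed at 0.124 TPM or less throughout. Member counts without Diff replicate 1 were the same as with it.

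In GSCs against U87, 4 of the 7 tested genes besides DHRS3 were called, RDH10 higher and CRABP2, CYP26B1 and RARG lower, where 17.1% of all tested genes were called. In Diff cells against U87 only CRABP2 was called, lower, where the share over all tested genes was 12.3%. In Diff cells against GSCs 2 were called, CYP26B1 higher and CRABP2 lower, where the share was 8.01%. RARB had a mean of 0.971 TPM, did not pass the filter and is not among the 7. The median log2 fold change of the 7 was -0.76, -0.44 and -0.03 in these comparisons, in that order, beside 0.02, -0.04 and -0.06 over all tested genes. By adjusted p alone, 6, 5 and 5 of the 7 passed, where 48.6%, 39.4% and 34.8% of all tested genes did. The libraries of both lines did not overlap in 6, 7 and 5 of the 7, where 55.8%, 55.2% and 46.7% of all tested genes had ranges that did not overlap. In bulk RNA, fewer cells with a transcript and less of it per cell cannot be told apart.

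**Figure D1:**
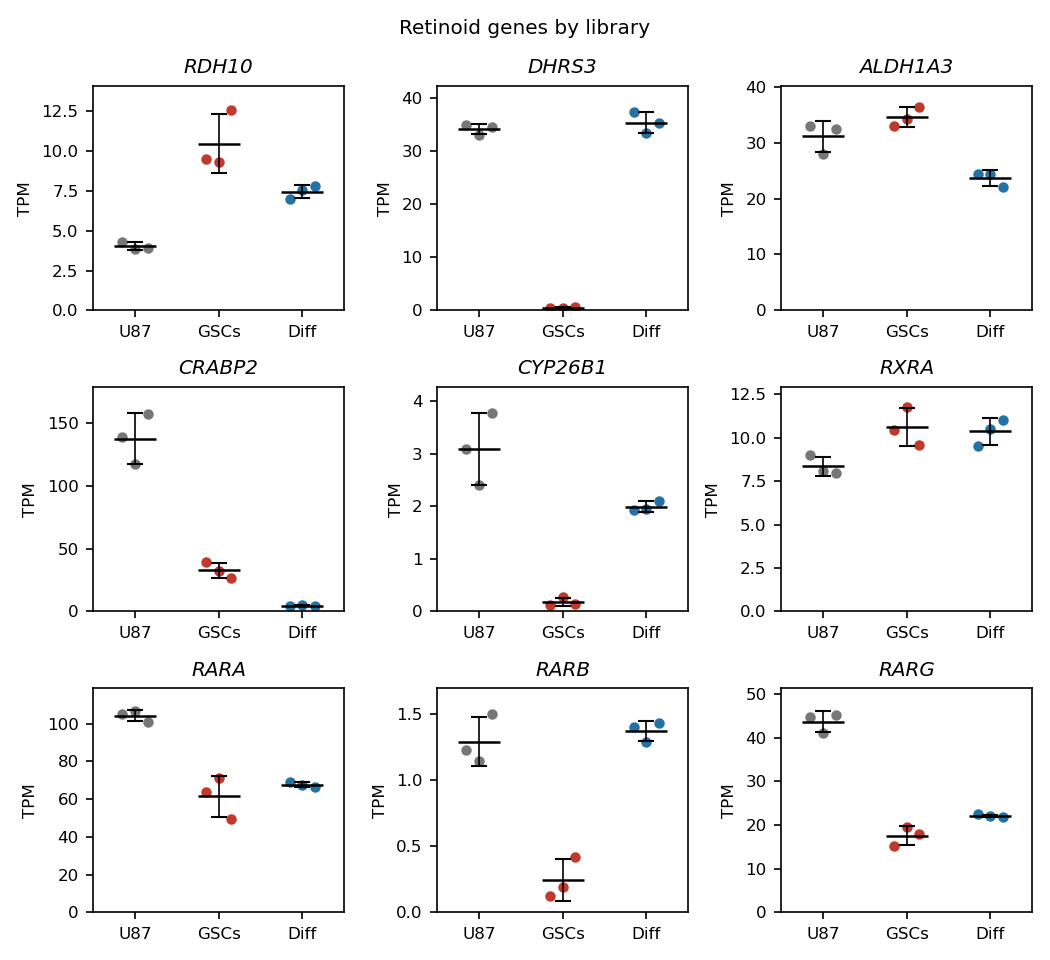
TPM of the 9 genes in each library (vertical axes, from 0) by cell line (U87, GSCs, Diff); points are libraries, long bars the mean and whiskers the SD of 3 libraries. DHRS3, CYP26B1 and RARB sit near 0 in GSCs, whereas CRABP2 steps down from 137 TPM in U87 to 32.6 in GSCs and 4.62 in Diff cells.

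RDH10, the retinol dehydrogenase of the pathway's first oxidation (chr8:73294612-73325281, plus strand), had 4.30, 3.87 and 3.94 TPM in the U87 libraries. The GSC libraries had 9.51, 9.32 and 12.6 TPM, and the Diff libraries 7.02, 7.58 and 7.81 TPM. All GSC libraries were above all Diff libraries, and these above all U87 libraries. RDH10 rose in GSCs by 1.18 ± 0.122 (SE, log2 scale) against U87 (limma, adjusted p = 6.39e-05). Diff cells were 0.75 above U87 (limma, adjusted p = 0.00128) and differed from GSCs by -0.43 (limma, adjusted p = 0.0253), both under the fold needed for a call. Of its exon bases, 5.22% lie opposite RDH10-AS1, which had 1.68 TPM in GSCs, 0.509 in U87 and 0.765 in Diff cells.

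DHRS3, which reduces retinal back to retinol (chr1:12567910-12617731, minus strand), had 34.9, 33.0 and 34.5 TPM in U87. It had 0.372, 0.484 and 0.710 TPM in GSCs, near 7.8, 11.2 and 12.9 reads. In Diff cells it had 37.3, 33.5 and 35.3 TPM. U87 and Diff libraries overlapped, and each lay far above every GSC library. The means were 34.1 ± 0.968, 0.522 ± 0.173 and 35.4 ± 1.91 TPM (SD, n = 3 each), which puts U87 65.4 times and Diff cells 67.7 times above GSCs. On the log2(TPM + 1) scale GSCs differed by -4.53 from U87, and by -5.82 with a pseudocount of 0.1, while Diff cells differed from U87 by 0.05. No exon of DHRS3 overlaps another gene in GENCODE 29.

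RDH10 and DHRS3 transcripts thus stood in different proportion in each line. There were 0.118 ± 0.00464 RDH10 transcripts per DHRS3 transcript in U87 and 0.212 ± 0.0208 in Diff cells (SD, n = 3 each). In GSCs the ratio was 25.6, 19.3 and 17.8 in the 3 libraries, 20.9 ± 4.14 on average. The DHRS3 pattern that chose the set enters this ratio, so it is a description. Other enzymes that act on retinol or retinal do not enter it. Among them RDH11 averaged 78.1, 90.4 and 62.7 TPM in U87, GSCs and Diff cells, and RDH8 and AKR1B10 are given below. The balance of oxidation and reduction was not measured.

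ALDH1A3, which makes retinoic acid from retinal (chr15:100877714-100916626, plus strand), kept a similar level in U87 and GSCs. U87 libraries had 33.0, 27.9 and 32.5 TPM, GSC libraries 32.9, 34.2 and 36.4, and Diff libraries 24.4, 24.4 and 22.0. U87 and GSCs overlapped, with a difference of 0.15 on the log2 scale (95% interval -0.04 to 0.33, limma adjusted p = 0.172). Diff cells lay below every library of both other lines, by -0.38 against U87 (limma, adjusted p = 0.00544) and -0.53 against GSCs (limma, adjusted p = 0.00129), without reaching the fold needed for a call. ALDH1A3 supplied 93.7% of the summed ALDH1A1, ALDH1A2 and ALDH1A3 TPM in U87, 89.6% in GSCs and 92.2% in Diff cells. Of its exon bases, 27.5% lie opposite another annotated gene, and the strand setting used in counting was not given in the sources used here.

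CRABP2, the carrier of retinoic acid to the nucleus (chr1:156699606-156705816, minus strand), was called in all 3 comparisons. U87 libraries had 138, 117 and 157 TPM, GSC libraries 38.9, 32.0 and 26.9, and Diff libraries 4.62, 5.30 and 3.95. The ranges of the 3 lines did not overlap, and U87 averaged 4.21 times the level of GSCs and 29.7 times that of Diff cells. It fell in GSCs by 2.05 ± 0.156 on the log2 scale (limma, adjusted p = 9.32e-06) and in Diff cells by 4.62 ± 0.156 (limma, adjusted p = 1.46e-07) against U87, and in Diff cells it was lower than in GSCs by 7.06 times (log2 fold change -2.57, limma adjusted p = 7.75e-06). DHRS3 and CRABP2 were both low in GSCs, but in Diff cells DHRS3 stood at 35.4 TPM and CRABP2 at 4.62. CRABP1, the related carrier, was listed at 0 in U87 and averaged 0.839 TPM in GSCs.

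CYP26B1, which breaks retinoic acid down (chr2:72129238-72148038, minus strand), had 3.09, 2.41 and 3.77 TPM in U87. GSC libraries had 0.120, 0.270 and 0.138 TPM, near 4.1, 10.4 and 4.1 reads, and Diff libraries 1.92, 1.95 and 2.11 TPM. Every GSC library was below every other, and U87 was 17.6 times and Diff cells 11.3 times above GSCs in mean TPM. It fell in GSCs by 1.79 ± 0.160 on the log2 scale against U87 (limma, adjusted p = 2.55e-05) and rose in Diff cells by 1.35 ± 0.160 against GSCs (limma, adjusted p = 0.000328). Between Diff cells and U87 the difference was -0.44 (95% interval -0.80 to -0.07, limma adjusted p = 0.0590), although the ranges did not overlap. With a pseudocount of 0.1 and no filter the log2 fold change in GSCs against U87 was -3.55.

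**Figure D2:**
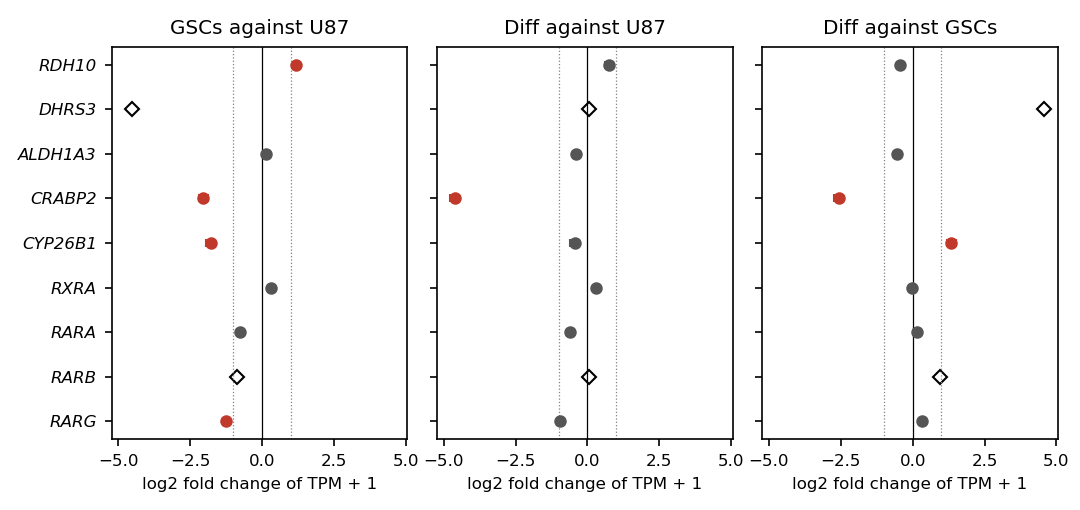
Log2 fold change of TPM + 1 with its SE (horizontal axes) for each gene in the 3 comparisons, with dotted lines at -1 and 1. Red points were called and grey points were not; white diamonds are DHRS3 and RARB, as differences with no test in the fit, and DHRS3 stands at -4.53 and 4.58 on both sides of GSCs.

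RARA encodes a receptor for retinoic acid (chr17:40309192-40357643, plus strand) and had the highest level among the 3 RAR genes in every library. U87 libraries had 105, 107 and 101 TPM, GSC libraries 64.0, 71.2 and 49.7, and Diff libraries 69.0, 67.6 and 66.7. U87 was above every library of the other lines, while GSCs and Diff cells overlapped. GSCs differed from U87 by -0.76 on the log2 scale (limma, adjusted p = 0.000504) and Diff cells by -0.61 (limma, adjusted p = 0.00235), under the fold needed for a call. Between Diff cells and GSCs the difference was 0.15 (95% interval -0.10 to 0.40). Of its exon bases, 17.9% lie opposite 2 other genes, of which RARA-AS1 averaged 5.28, 2.64 and 3.49 TPM in U87, GSCs and Diff cells.

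RARG, another of these receptors (chr12:53210567-53232980, minus strand), had 44.8, 40.9 and 45.2 TPM in U87. GSC libraries had 15.2, 19.5 and 17.9, and Diff libraries 22.4, 22.0 and 21.9. The 3 lines did not overlap, with GSCs lowest. RARG fell in GSCs by 1.27 ± 0.0886 on the log2 scale against U87 (limma, adjusted p = 5.48e-06). In Diff cells it was at -0.95 against U87 (limma, adjusted p = 4.62e-05), just short of the fold for a call.

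RARB, the receptor gene that carries the DR5 shown above, had 1.23, 1.14 and 1.5 TPM in U87 and 1.40, 1.29 and 1.43 in Diff cells. In GSCs it had 0.123, 0.194 and 0.423 TPM, near 3.1, 5.5 and 9.4 reads. U87 and Diff libraries overlapped, and every GSC library lay below them. Without the filter on low values RARB differed by -0.88 in GSCs against U87 (limma, adjusted p = 0.00156) and by 0.94 in Diff cells against GSCs (limma, adjusted p = 0.00215), short of the fold for a call. With a pseudocount of 0.1, a setting chosen after the data were seen, these became -2.09 (limma, adjusted p = 0.00286) and 2.18 (limma, adjusted p = 0.00423), past it. Diff cells and U87 differed by 0.05 without the filter (95% interval -0.26 to 0.37). RARB lies at chr3:25174332-25597932 on the plus strand.

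RXRA, the partner receptor (chr9:134317098-134440585, plus strand), had 8.98, 8.11 and 7.99 TPM in U87. GSC libraries had 10.4, 11.8 and 9.59, and Diff libraries 9.55, 10.5 and 11.05. Both lines were above U87 in every library and overlapped each other. GSCs were 0.31 above U87 on the log2 scale (limma, adjusted p = 0.0301) and Diff cells 0.28 (limma, adjusted p = 0.0516), and neither was called. The difference between Diff cells and GSCs, -0.03 (95% interval -0.25 to 0.20), changed sign under all 3 other scalings.

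The receptor pool as a whole was described by summed TPM. RARA, RARB and RARG together had 149 ± 1.70 TPM in U87, 79.4 ± 11.4 in GSCs and 91.3 ± 1.44 in Diff cells (SD, n = 3 each). RXRA, RXRB and RXRG together had 23.2 ± 0.945, 33.5 ± 1.60 and 26.7 ± 1.19 TPM. On average the RAR sum was thus lowest and the RXR sum highest in GSCs, although the RAR sums of GSC and Diff libraries overlapped. RARA supplied 69.9 ± 1.70% of the RAR sum in U87, 77.4 ± 3.91% in GSCs and 74.3 ± 0.149% in Diff cells, and RARG 29.2 ± 1.59%, 22.3 ± 3.67% and 24.2 ± 0.0900%. RARB was 0.866%, 0.330% and 1.505% of it. RXRA supplied 36.0 ± 1.38% of the RXR sum in U87, 31.7 ± 2.58% in GSCs and 38.8 ± 1.43% in Diff cells, and nearly all of the rest was RXRB, which averaged 14.9, 22.8 and 16.3 TPM. RXRB was 0.59 higher in GSCs than in U87 on the log2 scale (limma, adjusted p = 0.000105) and was not called.

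**Figure D3:**
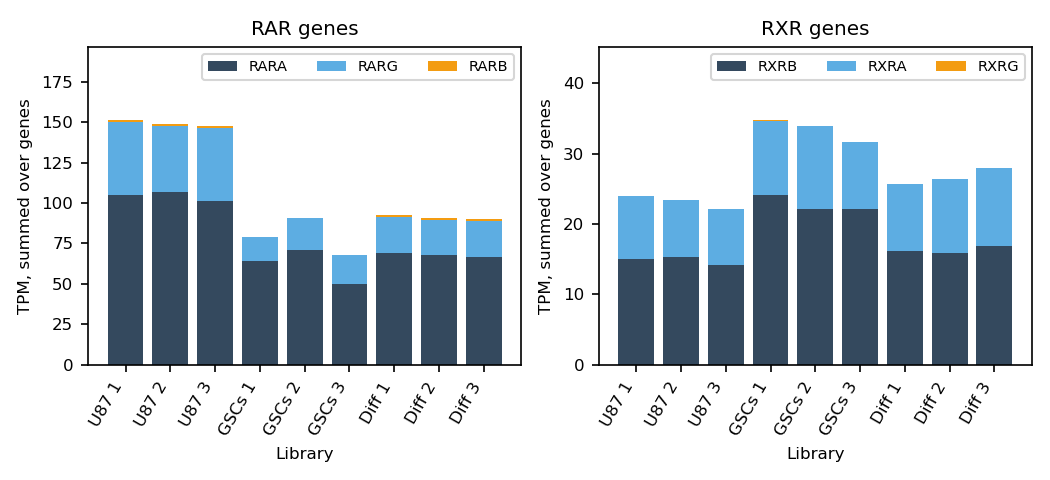
Summed TPM (vertical axes, from 0) of the RAR genes and of the RXR genes in each of the 9 libraries (horizontal axes), stacked by gene. RAR bars are highest in U87, at 149 TPM on average, and RXR bars highest in GSCs, at 33.5 TPM.

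Other genes of retinoid uptake, metabolism, binding and reception were read from a list of 42, of which 24 were tested. Called genes numbered 4 higher and 3 lower for GSCs against U87. They numbered 4 higher and 1 lower when Diff cells were set against U87, and 3 higher and 1 lower when they were set against GSCs. These are 7, 5 and 4 of 24, beside 17.1%, 12.3% and 8.01% called among all tested genes. Their median log2 fold changes were 0.15, 0.28 and -0.05, beside 0.02, -0.04 and -0.06 over all tested genes. RDH8, a retinol and retinal oxidoreductase known from photoreceptors, had the largest change. The direction in which it acts in these cells was not measured. RDH8 had 0.226, 0.360 and 0.127 TPM in U87, 68.1, 69.0 and 65.2 in GSCs, and 18.2, 17.5 and 18.5 in Diff cells. It rose by 5.79 in GSCs (limma, adjusted p = 3.31e-09) and by 3.95 in Diff cells (limma, adjusted p = 2.45e-08) against U87, and fell in Diff cells against GSCs (log2 fold change -1.84, limma adjusted p = 2.21e-06). AKR1B10, a retinal reductase, fell against U87 both in GSCs (log2 fold change -1.68, limma adjusted p = 2.97e-06) and in Diff cells (-1.73, limma adjusted p = 3.79e-06), from 14.5 to 3.84 and 3.66 TPM. RDH14 rose in GSCs (1.14, limma adjusted p = 0.000111), with 16.6% of its exon bases shared with a readthrough gene, and DHRS9 rose in Diff cells against U87 (1.03, limma adjusted p = 0.00198) and GSCs (1.45, limma adjusted p = 0.000429).

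STRA6, the membrane receptor through which cells take up retinol, followed the GSC-low pattern. It had 1.24, 0.790 and 1.502 TPM in U87, 0.0189, 0 and 0.0868 in GSCs, and 3.62, 3.78 and 3.83 in Diff cells. STRA6 fell in GSCs against U87 (log2 fold change -1.06, limma adjusted p = 0.000649) and rose in Diff cells against U87 (1.14, limma adjusted p = 0.000564) and GSCs (2.196, limma adjusted p = 2.21e-05). Its mean of 1.65 TPM passed the filter through Diff cells (3.74), since U87 averaged 1.18 and GSCs 0.0353. NRIP1, a corepressor of nuclear receptors, had 51.8, 54.1 and 54.8 TPM in U87, 18.3, 18.3 and 21.9 in GSCs, and 47.7, 44.9 and 47.1 in Diff cells. It fell in GSCs against U87 (-1.42, limma adjusted p = 1.12e-06) and rose in Diff cells against GSCs (1.22, limma adjusted p = 8.62e-06). Near the threshold, STRA6 in GSCs against U87 was not called without U87 replicate 3 (log2 fold change -0.95), and DHRS9 in Diff cells against U87 was not called without Diff replicate 3 or U87 replicate 3 (0.88 at the weakest). FABP5, which can carry retinoic acid to another receptor, PPARD, rose against U87 in GSCs (2.22, limma adjusted p = 6.01e-06) and in Diff cells (1.81, limma adjusted p = 2.95e-05), from 1.79 to 11.9 and 8.67 TPM. ALDH1A2, a retinoic acid-making enzyme, rose in GSCs (1.21, limma adjusted p = 0.000258), from 0.708 to 2.95 TPM. ALDH1A1 was listed at 0 in the 3 Diff libraries, beside 1.37 TPM in U87 and 1.07 in GSCs and was not tested.

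Genes whose expression responds to retinoic acid in other systems made up a list of 29, of which 16 were tested, with STRA6 and NRIP1 on both lists. For GSCs against U87 the calls were 3 higher and 3 lower. Set against U87, Diff cells had 5 calls higher and 0 lower, and set against GSCs they had 4 higher and 2 lower. These are 6, 5 and 6 of 16, beside the same 17.1%, 12.3% and 8.01% of all tested genes. Their median log2 fold changes were 0.18, 0.66 and 0.52, beside 0.02, -0.04 and -0.06. TGM2, a transglutaminase induced by retinoic acid, had 32.0, 28.0 and 32.7 TPM in U87, 33.2, 38.6 and 34.4 in GSCs, and 113, 112 and 117 in Diff cells. It rose in Diff cells by 1.85 against U87 (limma, adjusted p = 4.82e-07) and 1.66 against GSCs (limma, adjusted p = 2.11e-06). GSCs and U87 differed by 0.19 (95% interval 0.02 to 0.37, limma adjusted p = 0.0682). The homeobox gene HOXA5 rose in GSCs (1.61, limma adjusted p = 5.89e-06) and Diff cells (2.13, limma adjusted p = 1.80e-06) against U87, and HOXA2 rose in Diff cells (1.01, limma adjusted p = 0.000537). HOXA3 fell in GSCs against U87 (-1.03, limma adjusted p = 0.000703) and rose in Diff cells against GSCs (1.74, limma adjusted p = 7.49e-05), with 15.4% of its exon bases opposite antisense genes. MEIS2, a homeobox cofactor, rose in GSCs against U87 (1.00, limma adjusted p = 2.28e-06) and fell in Diff cells against GSCs (-1.66, limma adjusted p = 7.27e-07). ICAM1, an adhesion molecule, rose in GSCs (3.09, limma adjusted p = 1.11e-07) and in Diff cells (1.497, limma adjusted p = 1.02e-05) against U87 and fell in Diff cells against GSCs (-1.59, limma adjusted p = 1.48e-05). Some of these calls sat at the fold threshold. MEIS2 in GSCs against U87 was not called in 7 of 20 refits (log2 fold change 0.98 to 1.02), which were quantile normalization, median-ratio scaling, leaving out mitochondrial genes and RN7SL1, and leaving out GSCs replicate 1 or 3 or U87 replicate 1 or 2. HOXA3 in GSCs against U87 was not called in 3 of 19, without GSCs replicate 1 or 3 or U87 replicate 3, where it came to -0.96 at the weakest. HOXA2 in Diff cells against U87 was not called in 3 of 19, without Diff replicate 1 or U87 replicate 1 or 3, with 0.95 at the weakest. RARRES2 was listed at 0 in the 6 libraries of U87 and GSCs and had 3.16, 2.72 and 3.03 TPM in Diff cells.

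**Figure D4:**
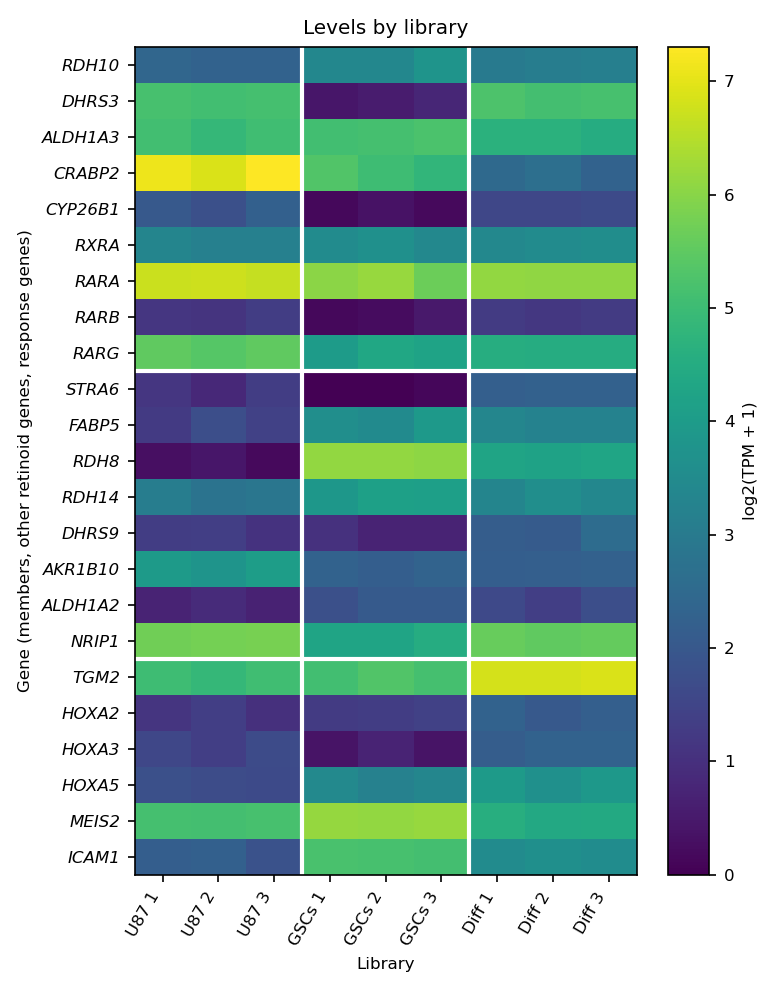
Log2(TPM + 1) (color scale) of 23 genes (vertical axis) in the 9 libraries (horizontal axis): the 9 genes above, then 8 other retinoid genes and 6 response genes that were called in a comparison, with white lines between the lists and between cell lines. DHRS3, CYP26B1, RARB, STRA6 and HOXA3 are dark in all 3 GSC columns, and RDH8 is dark in U87.

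The genes beside each member on its chromosome were read as well, 10 tested genes on each side. Around DHRS3 the median log2 difference was 0.01 in GSCs against U87, with a range of -1.31 to 1.16, while DHRS3 itself stood at -4.53. Around CRABP2 the median was -0.19 in GSCs and -0.04 in Diff cells against U87, and CRABP2 lay below the lowest neighbor in both. Around CYP26B1 it was -0.29 in GSCs against U87, with 4 of 20 neighbors called lower and 0 higher, and the lowest neighbor, at -1.57, was near the -1.79 of CYP26B1. RDH10, RARG and RARB lay within the range of their neighbors in GSCs against U87. Outside the 9 genes, FABP5 lay within the range of its neighbors against U87 both in GSCs and in Diff cells. LNMICC beside it stood at 2.63 in GSCs and 2.51 in Diff cells, while the median of the 20 neighbors was 0.19 and 0.07. The part of position in the FABP5 change was not tested.

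**Figure D5:**
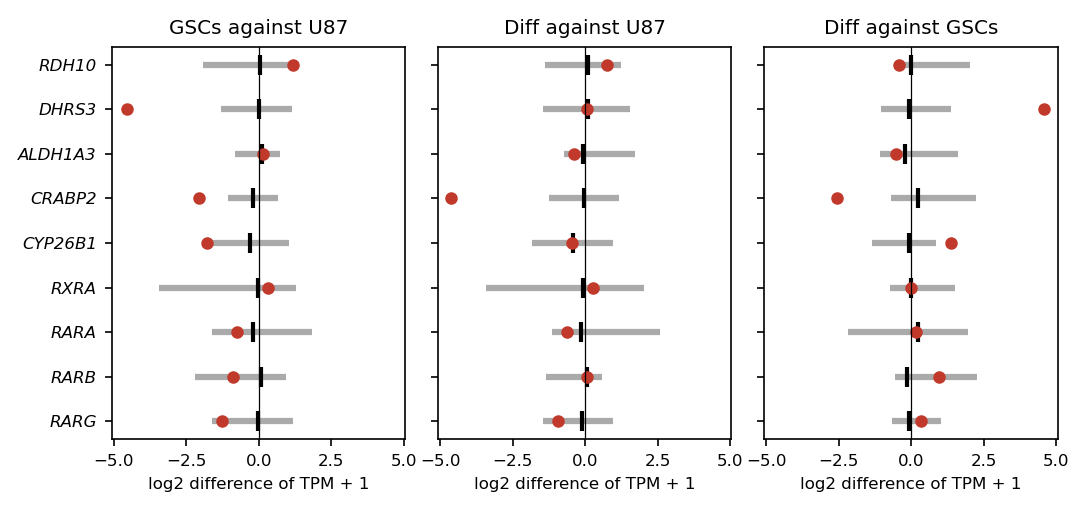
Log2 difference of TPM + 1 (horizontal axes) of each gene (red points) beside the range (grey bars) and median (black ticks) of its 20 neighboring tested genes in the 3 comparisons. DHRS3 stands outside its bar at -4.53 in GSCs against U87 and at 4.58 in Diff cells against GSCs, and CRABP2 at -4.62 in Diff cells against U87.

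Likeness to DHRS3 was measured by Pearson's r of log2 values over the 9 libraries, which fall into 3 lines, among 644 protein-coding genes whose line means spanned at least 2 log2 units. The closest were ENDOD1 (r = 0.997), SDSL (0.993), NFATC2 (0.993), CAMK2A (0.992) and SPOCD1 (0.991). ENDOD1 averaged 19.9, 1.84 and 20.7 TPM in U87, GSCs and Diff cells, and NFATC2 averaged 7.58, 0.204 and 10.3. For ALDH1A3, lowest in Diff cells, the closest were NT5E (0.961), PDGFRA (0.951), EREG (0.936), MAML3 (0.932) and ADAMTS18 (0.926). NT5E averaged 729 TPM in U87, 1047 in GSCs and 244 in Diff cells.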

How the data were processed

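Expression in U87, GSCs and Diff cells, measured by RNA-seq in 3 libraries per line, was deposited by the authors as 1 table of log2(TPM + 1) for 60606 genes. The submitters' processing notes name FastQC 0.11.9, Trimmomatic 0.39, HISAT2 2.2.1, featureCounts 2.0.5, R 4.2.0 and GRCh38, with no order. The annotation and strand setting were not given in the sources used here. The labels describe ribosomal RNA removal and directional libraries, whereas the study's methods describe oligo(dT) beads, and this bears on RNAs without a poly(A) tail. Groups were taken from sample titles. Back-transformed TPM summed to 1000000 per library, so depth was divided out. Approximate reads were worked out from the spacing of small TPM values and GENCODE 29 gene lengths (80.7 to 81.8% of low values lay within 0.1 of a whole number of reads). No count test was run, and no interval or limit for counting error was derived.

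Genes with a mean TPM over 1 (22909) were fitted in limma 3.58.1 under R 4.3.3, with a mean-variance trend, a pseudocount of 1 and all 3 groups together, with Benjamini-Hochberg adjustment per comparison. The genes studied and the lists were chosen with earlier results of these data known. Of the lists, up to 10 called genes per comparison, by fold change, were named, together with ALDH1A1, ALDH1A2, CYP26A1, CRABP1, STRA6 and RXRB (1 further gene of this rule is not reported here); RARRES2 and the single TGM2 and HOXA values beyond this were chosen after their values were seen, and for likeness the 5 genes closest to DHRS3 and to ALDH1A3 were named. On simulated data for GSCs against U87 (22909 genes), 77 of 100 genes changed by 1.5 and 86 of 100 changed by 2 on the log2 scale were recovered, with 1 false call. Alternatives covered pseudocount, filter, scaling, trend, cell lines per fit, the threshold, the replicate block and the omission of each library. Positions are those of GENCODE 29 (GRCh38), promoters those of RefSeq (GRCh38.p14). Python 3.11.15 with pandas 2.3.3 was used for tables, and matplotlib 3.10.9 for plots.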

Additional observations from a re-analysis of the deposited data

How the results depend on the processing

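Each comparison was repeated under 21 alternatives. Of the 7 tested genes besides DHRS3, 4 were called in GSCs against U87. That count was 3 with a filter at a mean TPM over 5, 6 by adjusted p alone, 5 with no filter and a pseudocount of 0.1, and 4 under the other alternatives. In Diff cells against U87 the count was 1, and 5 by adjusted p alone. In Diff cells against GSCs it was 2, then 5 by adjusted p alone and 3 with no filter and a pseudocount of 0.1. There it was 1 with a filter at a mean TPM over 5, which CYP26B1 does not pass. For the other retinoid genes, adjusted p alone gave 16 in GSCs against U87 (7 called), 16 for Diff cells against U87 (5 called) and 13 against GSCs (4 called). The filter at a mean TPM over 5 left 3 for Diff cells against U87 and 2 against GSCs, and no filter with a pseudocount of 0.1, chosen after seeing the data, gave 8 in Diff cells against U87. For the response genes, adjusted p alone gave 11 for Diff cells against U87 (5 called) and 13 against GSCs (6 called), and the filter at 5 left 3 in Diff cells against U87. The stricter filter tests fewer genes and the threshold without a fold admits smaller changes. The difference of RXRA between Diff cells and GSCs, -0.03, reversed to 0.0785 under quantile normalization, 0.0144 under median-ratio scaling and 0.0322 without mitochondrial genes and RN7SL1, and ran from -0.0906 to 0.0442 over the omission of single libraries, being above 0 without Diff replicate 1 (0.0261) or GSCs replicate 2 (0.0442); the cause was not tested. Over the omission of single libraries the calls on the 7 genes stayed at 4, 1 and 2, and those on the response genes in GSCs against U87 ran from 4 to 6 against 6. Libraries with the same replicate number did not deviate together (r from -0.04 to 0.05 in 9 pairs, and from -0.06 to 0.05 in 18 pairs with different numbers). No pairing by number was thus seen, though correlations of deviations cannot exclude one. With a replicate block, 4, 1 and 2 of the 7 genes were called, and the adjusted p of RXRA in GSCs against U87 was 0.0596 in place of 0.0301. Over the alternatives, limma's adjusted p ran from 0.0144 to 0.0931 for RXRA in GSCs against U87, from 0.0249 to 0.229 for CYP26B1 in Diff cells against U87. For Diff cells against GSCs it ran from 0.0217 to 0.0803 for RDH10 and from 0.00807 to 0.0594 for RARG. CYP26B1 and RARB had few reads in GSCs, which limits the precision of their fold changes.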
